A study of Mus musculus with 12 samples.

Results

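The genes described here are 10 members of the matrix metalloproteinase (MMP) system, 6 MMPs (Mmp2, Mmp3, Mmp9, Mmp12, Mmp14 and Mmp19) and 4 tissue inhibitors of metalloproteinases (Timp1, Timp2, Timp3 and Timp4). They were taken by symbol from a table of 55414 genes measured by RNA sequencing, and all 10 were found and tested. The tissue was the inferior vena cava (IVC) of wild-type C57BL/6J mice, 10 weeks old, on postoperative day 7. 6 mice had an infrarenal aortocaval fistula (AVF group), made by needle puncture of the aorta into the IVC, and 6 had a sham operation (sham group). Each group held 3 female and 3 male mice, and each mouse gave 1 library of poly(A) RNA. The study set apart 2 of the AVF samples, #05 (male) and #09 (female), as outliers (OUT) from their expression, and called the other 4 normal AVF (nAVF). Because that split was made from these same expression values, the OUT samples are given here by their values and were not tested as a group.

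MMPs are zinc proteases that cut collagen, elastin, proteoglycans and other parts of the extracellular matrix, and most are secreted as inactive precursors. TIMPs bind the active site of MMPs and block it, and TIMP2 also takes part in the activation of the MMP2 precursor by the membrane-bound MMP14. In the vessel wall the balance of these proteins is known for its part in outward remodeling, when a vein or artery widens and its matrix is taken apart and rebuilt. The measurements here are of mRNA and give neither the amount nor the activity of the proteins.

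The members lie at 10 loci on 8 chromosomes of the GRCm39 mouse genome. Mmp2, which encodes gelatinase A, is at chr8:93553902-93580049. The gene of gelatinase B, Mmp9, is at chr2:164780439-164797771. Mmp14 encodes the membrane-bound MMP and is at chr14:54668878-54682821. Mmp3, the gene of stromelysin-1, and Mmp12, that of macrophage elastase, lie in the same cluster of MMP genes, at chr9:7445822-7455975 and chr9:7344381-7369499. Mmp19 is at chr10:128626773-128636695, on the same chromosome as Timp3 at chr10:86136236-86185371. Timp1 is on the X chromosome at chrX:20736316-20740976, Timp2 at chr11:118191887-118246566 and Timp4 at chr6:115187773-115229336. The genes Timp1, Timp3 and Timp4 each lie within a synapsin gene on the opposite strand (Syn1, Syn3 and Syn2), and Mmp19 lies within Tmem198b on the opposite strand. Counting used the strand, which is meant to separate such pairs, and how fully it did so was not tested. Syn2, Syn3 and Tmem198b share exon sequence with the member inside them and had 367 to 4191, 115 to 422 and 108 to 358 counts per library. Timp4, within Syn2, had 178 to 1005. Timp2 also shares exon sequence with Cep295nl on its own strand, a gene with 14 to 85 counts per library.

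The sequence before a start site is shown for the members with an entry in RefSeq's table of the GRCm38.p6 build, whose 250 bases before each start were placed on GRCm39 by exact match. An entry was present for 7 members, and Mmp2, Mmp9 and Mmp19 had none. The 250 bases before Mmp3 and Mmp12 are printed because both members of the chromosome 9 cluster hold the letters of the AP-1 motif, TGANTCA, at almost the same distance from their start. For both, that start is also the start of the canonical transcript in GENCODE, which for Mmp12 lies within the span of the gene. AP-1 is the Fos and Jun family of factors, and its motif is in capitals. Also in capitals are the letters of the TATA box motif (TATAAA) in Mmp3, which lie 7 to 2 bases before the RefSeq start. Whether they act as a TATA box was not tested.

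Mmp3, chr9:7445572-7445821, plus strand: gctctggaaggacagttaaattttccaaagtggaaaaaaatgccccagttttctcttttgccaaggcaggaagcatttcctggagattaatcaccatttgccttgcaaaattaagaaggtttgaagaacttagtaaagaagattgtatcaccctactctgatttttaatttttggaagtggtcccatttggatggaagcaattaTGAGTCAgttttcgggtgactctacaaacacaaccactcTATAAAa
Mmp12, chr9:7347124-7347373, plus strand: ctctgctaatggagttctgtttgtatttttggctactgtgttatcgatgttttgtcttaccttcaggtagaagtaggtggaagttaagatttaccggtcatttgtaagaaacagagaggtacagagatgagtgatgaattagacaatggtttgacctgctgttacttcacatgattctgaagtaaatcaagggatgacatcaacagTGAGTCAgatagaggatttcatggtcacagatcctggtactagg

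The AP-1 letters lay 46 to 40 bases before the start of Mmp3 and 44 to 38 bases before that of Mmp12. They were searched on both strands and are present in 6.73% of the 32536 RefSeq upstream sequences of this length, and in 2 of the 7 members. The GC box (GGGCGG on either strand), the letters bound by Sp factors, was present in 4 of the 7 members and in 33% of all upstream sequences, and the TATA box letters in 1 of the 7 and in 12.3%. Windows of 30 bases around the GC boxes, in capitals, are shown for the 4 members that hold them, among them Mmp14 and Timp1.

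Mmp14, chr14:54669025-54669054, plus strand: ggagggcattgGGGCGGGGGCGGaggagag
Timp1, chrX:20736375-20736404, plus strand: atctttgggtttatcctggggcCCGCCCct
Timp2, chr11:118246254-118246283, minus strand: gggagggctGGGCGGcgcggcgcgggagga
Timp3, chr10:86136246-86136275, plus strand: cggtccgggccggctCCGCCCtgtcgcccc

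Mmp14 held 2 GC boxes next to each other, and Timp1, Timp2 and Timp3 held 1 each. The RefSeq starts of these members lay 177 (Mmp14), 54 (Timp1), 126 (Timp2) and 40 (Timp3) bases away from the canonical start in GENCODE. For Mmp14 and Timp3 these distances equal those back to the first base of the gene, which puts their GC boxes within the canonical transcript. For Timp1 and Timp2 a GC box before the RefSeq start can also lie within it. Each printed window lies within the span of its gene. Timp4 held none of the 3 motifs. A match of letters is a description of the sequence, and binding was not measured.

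The libraries held 15177881 to 22717423 counts. Ribosomal RNA genes took 46.0% of the counts in #07, a female AVF sample, and 2.39% to 12.6% in the others. The labelled tissue was checked against marker genes, and those of endothelium and smooth muscle were present in every library, with summed levels of 1558 to 2651 and 2186 to 4751 normalized CPM (counts relative to the normalized library size). Hepatocyte marker genes summed to 2303 normalized CPM in #05 and 6462 in #09 and to no more than 3.94 in any other sample, and heart muscle marker genes summed to 693 in sham sample #19 and to no more than 4.73 elsewhere. The results below are therefore also given without #05 and #09 where that changed a call of a gene or list named here, and leaving out #07 or #19 changed the call of no member. All levels are in normalized CPM, that is, a gene's counts divided by the TMM-normalized library size, and the lowest count of any member in any library was 14, for Mmp12 in sham sample #22.

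Compared with the sham group, 4 members had increased expression in the AVF group (Mmp2, Mmp14, Mmp19 and Timp1), 1 had decreased expression (Mmp9), and the other 5 did not pass the test. Of the 15912 genes tested in this comparison, 8.63% were higher in AVF and 5.13% were lower at an adjusted p under 0.05 in the quasi-likelihood test of edgeR. Mmp14 and Timp1 also changed at least 2-fold, which makes them differentially expressed genes (DEG), a rule that 3.37% of tested genes met in this direction. All AVF samples lay above all sham samples for Mmp2 and Mmp14, as they did for 4.55% of tested genes, and no member lay wholly below, as 1.51% of tested genes did. The median log2 fold change was 0.33 over the 10 members and -0.01 over all tested genes.

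**Figure D1:**
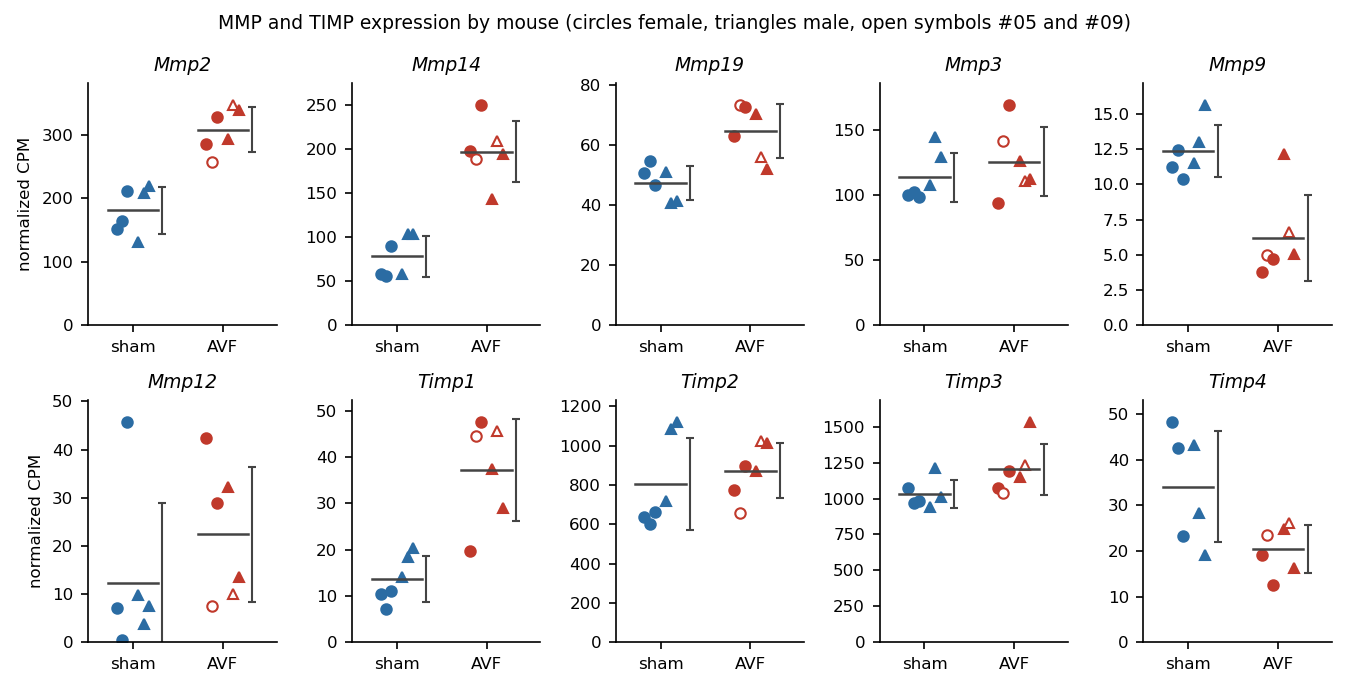
Normalized CPM of each member (y axes, starting at 0) in the 6 sham (blue) and 6 AVF (red) mice, with circles for females, triangles for males and open symbols for #05 and #09; the horizontal line is the group mean and the bar beside it 1 SD. All AVF points of Mmp2 and Mmp14 lie above all sham points, 5 of 6 AVF points of Mmp9 lie below all sham points, and the Mmp12 points of sham lie between 0.593 and 9.78 except for #23 at 45.7.

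Mmp14 rose most among the MMPs that passed the test. Its expression was 56.0 to 104 normalized CPM in sham, with a median of 74.4, and 143 to 250 in AVF, with a median of 196. The lowest AVF value, in #04, was above the highest sham value, in #17. The means were 197 ± 34.5 (SD, n = 6) in AVF and 78.4 ± 23.4 (SD, n = 6) in sham, 2.52-fold higher in AVF with a 95% interval of 1.89 to 3.35. The log2 fold change was 1.33 (SE 0.19), with a Benjamini-Hochberg adjusted p of 0.001247 in the quasi-likelihood test of edgeR. The OUT samples, at 209 in #05 and 189 in #09, lay within the range of the other AVF samples.

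Mmp2, the gelatinase whose precursor MMP14 activates, rose less in fold but from a higher level per length of transcript. Sham samples had 132 to 219 normalized CPM with a median of 186, and AVF samples had 257 to 347 with a median of 311. The groups did not overlap. The means were 308 ± 34.9 (SD, n = 6) in AVF and 181 ± 36.5 (SD, n = 6) in sham, a fold change of 1.71 with a 95% interval of 1.40 to 2.09. Its log2 fold change of 0.77 (SE 0.13) passed the same edgeR test with an adjusted p of 0.003534. The OUT samples held the highest and the lowest AVF values, 347 in #05 and 257 in #09, both above every sham sample.

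Mmp19, a secreted MMP that cuts basement membrane proteins, rose by a smaller amount, and its groups touched. It had 40.8 to 54.8 normalized CPM in sham with a median of 48.6, and 52.0 to 73.4 in AVF with a median of 66.7. 5 of 6 AVF samples lay above all sham samples, and #06 did not. The OUT samples had 56.2 (#05) and 73.4 (#09), the latter the highest of the 12. The means were 64.6 ± 9.03 (SD, n = 6) and 47.5 ± 5.64 (SD, n = 6), and the log2 fold change was 0.44 with an SE of 0.11 (adjusted p = 0.02072 by edgeR). The call was lost without #05 and #09 (adjusted p = 0.05683), without #11 (0.05373) and without sham sample #23 (0.05153), with log2 fold changes of 0.40 to 0.44 in edgeR.

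Mmp9, gelatinase B, which is stored in the granules of neutrophils and made by macrophages, was the only member called lower. It was at a low level, with 10.4 to 15.6 normalized CPM in sham and a median of 11.99, and 3.77 to 12.2 in AVF with a median of 5.03. 5 of 6 AVF samples lay below all sham samples, and #04 lay within the sham range. The OUT samples had 6.61 (#05) and 4.98 (#09). The means were 6.22 ± 3.05 (SD, n = 6) in AVF and 12.4 ± 1.84 (SD, n = 6) in sham, a fold of 0.50 with a 95% interval of 0.35 to 0.73. The log2 fold change was -0.99 with an SE of 0.25 (adjusted p = 0.02258 by edgeR's quasi-likelihood test). Without #05 and #09 it was -0.93, and the call was lost with an adjusted p of 0.07647 in edgeR. Neutrophil marker genes summed to 11.4 to 107 normalized CPM in sham and 21.0 to 40.8 in AVF, and the log2 fold changes of the 4 that could be tested were -1.05 to -0.02 with adjusted p values of 0.1793 to 0.9764 in edgeR. Of the 7 neutrophil markers, Ly6g, Camp and Ngp were too low to test. Ly6g was at 0 in all AVF libraries and at most 0.142 normalized CPM in sham. Camp had means of 0.0242 in AVF and 0.0405 in sham, and Ngp 0.152 and 0.132. Among the 4 tested, S100a8 and S100a9 had means of 8.69 and 12.4 normalized CPM in AVF and 18.1 and 22.0 in sham. Cxcr2 and Retnlg had 3.63 and 4.46 in AVF and 7.01 and 4.54 in sham. The part of these cells in the fall of Mmp9 was not tested.

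Mmp3 and Mmp12, both in the cluster on chromosome 9, did not pass the test. Mmp3 had 98.3 to 145 normalized CPM in sham and 93.8 to 169 in AVF, with medians of 105 and 119, and the OUT samples had 111 (#05) and 142 (#09). Its log2 fold change was 0.15 (SE 0.14, adjusted p = 0.5256 by edgeR), with a 95% interval of the fold of 0.89 to 1.37. Mmp12 was the most variable member, with 0.593 to 45.7 normalized CPM in sham (median 7.29) and 7.61 to 42.3 in AVF (median 21.3). A single sham mouse, #23, held the highest value of the 12, and the OUT samples held the lowest AVF values, 10.1 in #05 and 7.61 in #09. Its log2 fold change was 0.85 with an SE of 0.75 (adjusted p = 0.4708 by edgeR), which leaves a fold between 0.58 and 5.57. Without #23 the log2 fold change was 1.96 and the adjusted p 0.06712 in edgeR. It passed in none of the 24 settings tried.

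Among the inhibitors Timp1 alone passed the test, with the largest fold change of the 5 members called. TIMP1 is the inhibitor known to be induced in injured and inflamed tissue. It had 7.24 to 20.3 normalized CPM in sham with a median of 12.7, and 19.7 to 47.5 in AVF with a median of 41.0. 5 of 6 AVF samples lay above all sham samples, and #07, the library with 46.0% of counts from ribosomal RNA genes, lay just under the highest sham value, in #18. The means were 37.3 ± 11.0 (SD, n = 6) in AVF and 13.6 ± 4.99 (SD, n = 6) in sham, 2.74-fold higher with a 95% interval of 1.83 to 4.10. The log2 fold change was 1.45 with an SE of 0.27 (adjusted p = 0.004939 by edgeR). It was 1.31 without #05 and #09 (adjusted p = 0.02068 by edgeR), which had 45.6 and 44.6 normalized CPM.

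Timp2 and Timp3, the most abundant members per length of transcript, did not pass. Timp2 had 604 to 1119 normalized CPM in sham (median 691) and 659 to 1022 in AVF (median 885), so the AVF range lay within the sham range. The OUT samples held the highest and the lowest AVF values of Timp2, in #05 and #09. The fold of Timp2 was 1.09 with a 95% interval of 0.83 to 1.42 (adjusted p = 0.6943 by edgeR). Timp3, which binds to the matrix, had 942 to 1212 in sham (median 999) and 1035 to 1530 in AVF (median 1170). The OUT samples had 1233 (#05) and 1035 (#09). The fold of Timp3 was 1.16 with an interval of 0.99 to 1.37 (adjusted p = 0.1883 by edgeR).

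Timp4 had the direction of Mmp9 but did not pass. Sham samples had 19.1 to 48.2 normalized CPM with a median of 35.4, and AVF samples 12.7 to 26.1 with a median of 21.4. 2 of 6 AVF samples lay below all sham samples. The OUT samples had 26.1 (#05), the highest AVF value, and 23.6 (#09), within the sham range. The log2 fold change was -0.74 with an SE of 0.25 (adjusted p = 0.06494 by edgeR's quasi-likelihood test), a fold of 0.60 with a 95% interval of 0.41 to 0.87. The calls of this gene depended on the setting, since it passed in 4 of the 24 tried.

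**Figure D2:**
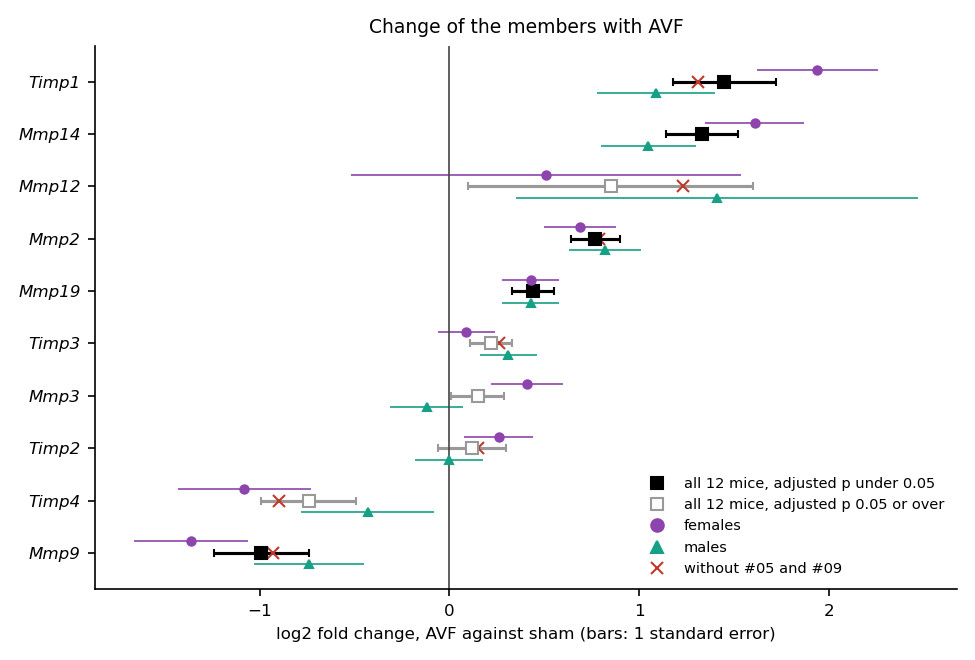
Log2 fold change of AVF against sham (x axis) for each member (rows), as squares with a bar of 1 SE for all 12 mice, filled black where the adjusted p was under 0.05; circles and triangles give females and males alone, and crosses all mice but #05 and #09. Timp1 and Mmp14 lie farthest to the right among the called members, at 1.45 and 1.33, and Mmp9 farthest to the left at -0.99.

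Mmp2, Mmp14 and Timp1 were called in all 24 settings tried, Mmp9 in 23 and Mmp19 in 21. Fewer cells of a type and less RNA per cell cannot be told apart in whole pieces of IVC. Of the macrophage marker genes 6 of 7 rose, and their summed level was 1070 to 1731 normalized CPM in AVF and 553 to 917 in sham, without overlap and with no marker at 0. Of the fibroblast markers 3 of 5 rose, among them Lum with a log2 fold change of 1.29 (adjusted p = 0.0001939 by edgeR), and 2 of 5 were called without #05 and #09, where Dpt had an adjusted p of 0.1409, while their summed level overlapped (4526 to 5504 in AVF, 3123 to 5333 in sham). None of the 5 smooth muscle and 5 endothelial markers passed in edgeR. Over all tested genes, 8.63% were called higher and 5.13% lower. Of the brown adipocyte markers 1 of 3 fell, and they summed to 7.40 to 165 in AVF and 65.9 to 1298 in sham. The call of that gene, Cidea, was lost without #05 and #09 (adjusted p = 0.05169 by edgeR). None of the 4 sympathetic neuron markers passed, but all 4 had negative log2 fold changes, -1.25 to -0.92. Their adjusted p values were 0.06159 to 0.1377 by edgeR. Without #07, 3 of them were called lower. The part of these cell types in the changes of the members was not tested.

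Levels were compared between genes only as normalized CPM per kb of the canonical transcript. In sham, Timp3 and Timp2 led, at 219 ± 20.9 and 215 ± 62.3 (SD, n = 6), ranks 135 and 141 of 14388 protein-coding genes. Mmp3 and Mmp2 followed at 63.0 and 58.4, and then Mmp14 at 28.1, Timp1 at 14.5 and Mmp19 at 13.7. Timp4 was at 6.09, Mmp9 at 3.90 and Mmp12 at 3.44. Neighbors in this order overlapped, except that Timp2 lay above Mmp3, Mmp2 above Mmp14 and Mmp19 above Timp4 in all mice. In AVF, Mmp2 (99.6 per kb) and Mmp14 (70.8) came after Timp3 (255) and Timp2 (233). Mmp3 came next, at 69.7, with a range that overlapped that of Mmp14. Mmp14 went from rank 1654 to 561 and Timp1 from 3346 to 1113 among protein-coding genes.

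**Figure D3:**
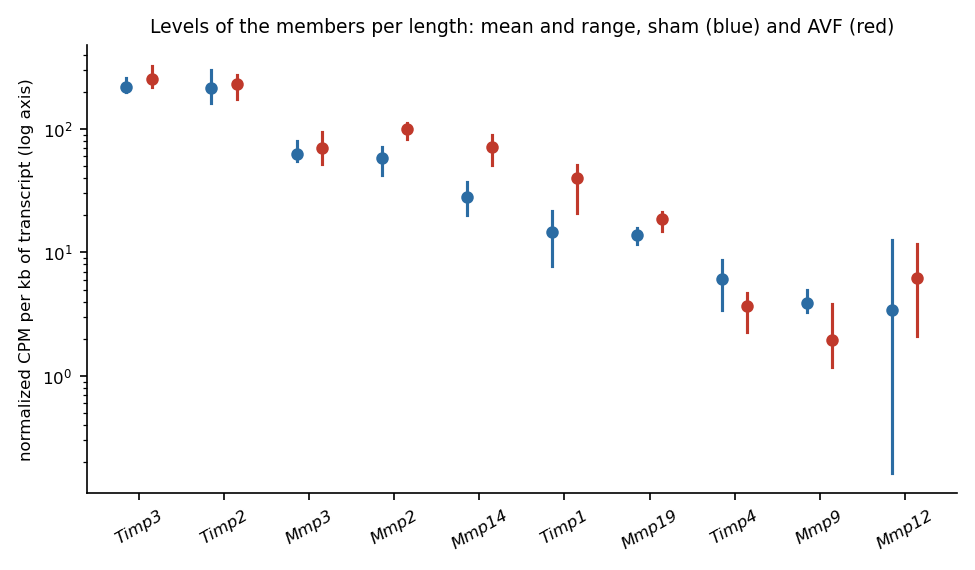
Normalized CPM per kb of transcript (y axis, log scale) of the members, ordered by their mean in sham, with a point for the mean and a line from the lowest to the highest mouse in sham (blue) and AVF (red). Timp3 and Timp2 are the highest in both groups, and the lines of Mmp2 and Mmp14 do not overlap between the groups.

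Ratios of these levels within each mouse are given as a description, with no test. The summed level of the 6 MMPs was 144 to 202 per kb in sham and 247 to 320 in AVF, without overlap, while that of the 4 TIMPs overlapped (381 to 570 in sham, 447 to 628 in AVF). The ratio of both sums was 0.349 to 0.460 in sham and 0.417 to 0.588 in AVF. Mmp14 over Timp2 was 0.109 to 0.184 in sham and 0.221 to 0.386 in AVF, and Mmp2 over Timp2 was 0.222 to 0.386 and 0.405 to 0.472. Both set a member called higher over one that did not pass the test, and the summed MMP level includes the same called members. In the opposite direction, Mmp9 over Timp1 was 0.209 to 0.507 in sham and 0.0294 to 0.0961 in AVF, a member called lower over one called higher. Mmp2 over Timp1 also had a lower median in AVF, 2.34 against 3.90 in sham. Its ranges overlapped, with 1.74 to 4.39 in AVF and 2.81 to 6.86 in sham. Timp1 made up 2.03% to 4.03% of the summed TIMP level in sham and 4.59% to 10.7% in AVF.

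**Figure D4:**
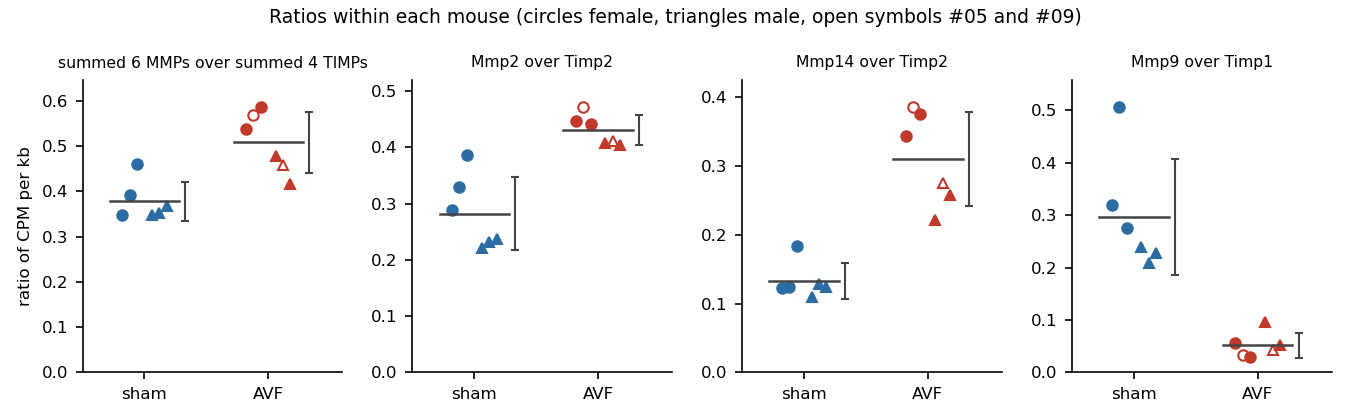
Ratios of CPM per kb in each mouse (y axes, starting at 0), with circles for females, triangles for males, open symbols for #05 and #09, the group mean as a line and 1 SD as a bar. The groups do not overlap for Mmp2 over Timp2, Mmp14 over Timp2 and Mmp9 over Timp1, and they overlap for the summed MMPs over the summed TIMPs.

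The sexes were compared in a fit of all 4 groups of operation and sex, over 22163 genes. None of the 10 members was called between female and male AVF samples, where 0.0226% of genes were called, or between female and male sham samples, where 0.0451% were (edgeR, adjusted p under 0.05), and DESeq2 called none either. At an unadjusted p under 0.05, Mmp9 was lower in female AVF samples (log2 fold change -0.83, SE 0.30), as 4.53% of genes passed in either direction, and Timp1 and Timp2 were lower in female sham samples (-0.85, SE 0.32, and -0.60, SE 0.18), where 7.58% of genes passed. Their adjusted p values were 0.9797, 0.6033 and 0.5424 by edgeR. Females and males did not overlap for 3 members in sham, as for 15% of genes, and for 1 in AVF, as for 8.37% of genes. In sham, Timp2 had 604 to 663 normalized CPM in the 3 females and 718 to 1119 in the 3 males, Timp1 had 7.24 to 11.2 and 14.2 to 20.3, and Mmp3 had 98.3 to 102 and 108 to 145. In AVF, Mmp9 had 3.77 to 4.98 in females and 5.07 to 12.2 in males. The Timp1 ranges overlapped in AVF, with 19.7 to 47.5 in females and 29.0 to 45.6 in males.

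The difference of the AVF effect between the sexes was called for 0 of the 22163 genes by edgeR and for 3 by DESeq2, none of them a member, with 1069 genes (4.82%) but no member at an unadjusted p under 0.05 in edgeR. Timp1 had a log2 fold change of AVF against sham of 1.94 (SE 0.32) in females and 1.09 (SE 0.31) in males, a difference of 0.85 with an SE of 0.44 (adjusted p = 0.9596 by edgeR). For Mmp14 the values were 1.61 (SE 0.26) and 1.05 (SE 0.25), and for Mmp9 -1.36 (SE 0.30) and -0.74 (SE 0.29). Mmp2 changed by 0.69 in females and 0.82 in males and Mmp19 by 0.43 in both. The adjusted p values of these 5 members within 1 sex were 0.009566 to 0.1543 in females and 0.1013 to 0.2987 in males by edgeR.

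The other MMP genes and the genes that activate, anchor, bind or clear MMPs and TIMPs were taken from lists. Of 17 other MMP genes, 10 were expressed enough to test, 1 rose (Mmp23) and none fell by edgeR, and their median log2 fold change was -0.04. The shares over all tested genes were 8.63% and 5.13%. Without #07, 1 of these MMP genes was called lower and 1 higher. With the replicate number as a block, 1 was called lower and 2 higher. Mmp23, a gene of a membrane-anchored MMP, had 66.4 ± 14.1 (SD, n = 6) normalized CPM in AVF and 37.8 ± 9.98 in sham (log2 fold change 0.81, SE 0.18, adjusted p = 0.01495 by edgeR). Without #05 and #09, Mmp17 was called as well (0.94, adjusted p = 0.03109 by edgeR). The genes Mmp1a, Mmp1b, Mmp7, Mmp20 and Mmp21 had 0 counts in every library.

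Of 14 genes that act on MMPs or TIMPs, 13 were tested, 6 rose and none fell by edgeR, with a median log2 fold change of 0.40. Among all tested genes, 8.63% rose and 5.13% fell. Thbs2, whose protein takes MMP2 to the clearing receptor LRP1, rose by 1.08 on the log2 scale (SE 0.22, adjusted p = 0.008438), and Lrp1 itself by 0.61 (SE 0.15, adjusted p = 0.02237 by edgeR). Cd63, a tetraspanin that binds TIMP1, rose by 0.53 (SE 0.13, adjusted p = 0.02137 by edgeR). Plat, the gene of tissue plasminogen activator, rose by 0.61 (SE 0.15, adjusted p = 0.01966 by edgeR), and Adam17, a sheddase that TIMP3 inhibits, by 0.38 (SE 0.09, adjusted p = 0.01367). Plg, plasminogen, was called at a log2 fold change of 8.87 (SE 2.25, adjusted p = 0.02358 by edgeR) and is made chiefly by the liver, and its highest value was 230 normalized CPM in AVF against at most 0.261 in sham. Without #05 and #09, which held the hepatocyte transcripts, 5 of these genes were called and Plg could not be tested for lack of counts.

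**Figure D5:**
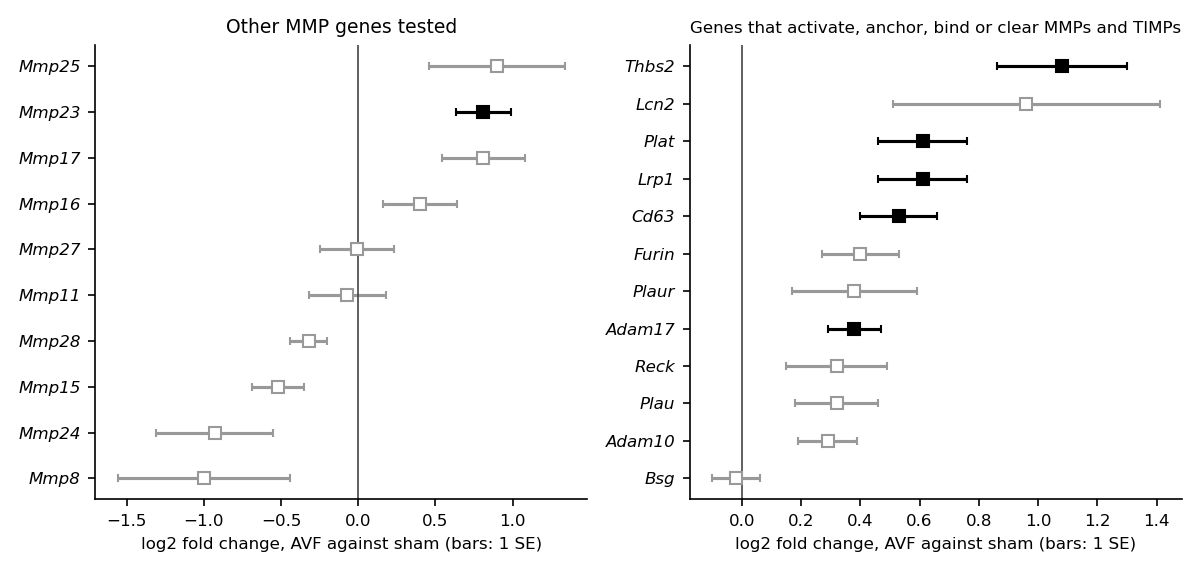
Log2 fold change of AVF against sham (x axes, bars of 1 SE) for the other MMP genes tested (left) and the genes that activate, anchor, bind or clear MMPs and TIMPs (right, Plg left out), filled black where the adjusted p was under 0.05. Mmp23 is the only called gene on the left, and 5 of the 12 drawn on the right are called, all of them to the right of 0.

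Within groups, members were compared over the 12 mice after each value was centred on its group's mean of log2 normalized CPM, as a description with no test, since all points share library and depth. The members most alike were Timp1 and Mmp3 (Pearson r = 0.789), Mmp14 and Mmp2 (0.785) and Timp2 and Mmp2 (0.701). The most opposed were Timp4 and Mmp14 (-0.839) and Timp2 and Mmp19 (-0.782). The pieces of IVC also differed in tissue mix within each group. Adipocyte marker genes summed to 2672 to 6929 normalized CPM in sham and 2893 to 6525 in AVF. Those of sympathetic neurons summed to 154 to 656 in sham and 56.6 to 371 in AVF. The part of this mix in the correlations was not tested. Over 9414 genes with a mean of at least 10 normalized CPM, the genes most like Mmp2 were Ddah2, Itm2c and Adamts2 (r = 0.967, 0.959 and 0.952), and those most like Mmp14 were Mpzl1, Lrp4 and Plekhb1 (0.957, 0.932 and 0.928). Timp1 was most like Ifitm3, Ostc and Tgif1 (0.944, 0.916 and 0.906), and Mmp9 most like Slc22a3, Tapbp and Tubgcp5 (0.918, 0.898 and 0.886). For Timp2 these were Nkd1, Pias1 and Itgbl1 (0.975, 0.957 and 0.956) and for Timp3 Khdrbs3, Gucy1b1 and Lrrc1 (0.902, 0.872 and 0.870). For Mmp3 they were Ugt1a6a, Hmgb1 and Cwc22 (0.900, 0.898 and 0.889), and for Mmp19 Eif1a, Etf1 and Armt1 (0.913, 0.911 and 0.902). Mmp12, the most variable member, had the least close neighbors, Armc8, Nav2 and Cd52 (0.831, 0.800 and 0.791). Those of Timp4 were Gpx4-ps2, a pseudogene whose reads are uncertain, Zdhhc7 and Nectin2 (0.947, 0.929 and 0.923).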

How the data were processed

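RNA from the IVC of 12 mice was sequenced in paired ends. The authors deposited expected counts per gene, made by trimming with PRINSEQ and Trimmomatic 0.39, aligning to GRCm39 with STAR 2.7.7a and counting by strand with RSEM 1.3.3, per the labels and the study's methods. Counts were rounded and normalized by TMM in edgeR 4.0.16 (R 4.3.3), as neither normalization nor a filter had been applied. Values that were not whole made up 5.72% to 7.75% per library, since RSEM shares reads between similar genes. Genes with over 1 CPM in at least 2 samples (AVF against sham) or over 12 counts in all (sexes) entered the quasi-likelihood test of edgeR, with Benjamini-Hochberg adjustment over all tested genes. Genes were named, placed and given a canonical transcript length from GENCODE vM39, a later release than the annotation of the authors. The members and lists were chosen with earlier results of these data known. Named genes are the 10 members, the called genes of both lists, those at 0 counts, the 3 most like each member, and genes that overlap a member. Mmp17 and the marker genes Lum, Dpt, Cidea, Ly6g, Camp, Ngp, S100a8, S100a9, Cxcr2 and Retnlg were named after their values were seen. Some results are not reported here. A gene with 3 counts had 0.127 to 0.323 normalized CPM, which covers counting error only. Pairs of libraries within a group differed by more than counting error (chi-square at least 36.8 times its degrees of freedom over 12 pairs), and the tests were checked on simulated counts. Each library is 1 mouse. Alternatives were the exact test, DESeq2 1.42.0, other normalization and filters, no rounding, a robust fit, sex as a covariate, a replicate block, removal of ribosomal RNA genes, removal of #05 and #09, and each sample left out.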

Additional observations from a re-analysis of the deposited data

Results flagged for a closer look

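In 20 groups of 6 samples (10 members in AVF and in sham), 2 held a sample far from the others by Dixon's criterion, and chance flags about 1 in 20. Mmp9 in AVF sample #04 was 12.2 normalized CPM, against 3.77 to 6.61 in the other AVF samples. Mmp12 in sham sample #23 was 45.7 normalized CPM, against 0.593 to 9.78 in the other sham samples.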

How the results depend on the processing

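Beside the main count of 4 members higher and 1 lower, the count of lower members was 2 in the exact test, in DESeq2 and with the replicate block, Timp4 being the second, and 0 without #05 and #09. With single samples left out the count was 1 to 2. Higher members numbered 3 to 4 in all settings. Over all genes, 2190 were called, with 3402 in DESeq2, 1230 without #05 and #09, and 1330 to 2546 with each sample left out. The counts were 1342 without #05, 1452 without #16, 1330 without #22 and 1450 without #23. The cause was not tested, except that fewer samples entered. The replicate block, which uses the number and sex in the labels, gave 1983 called genes. The labels do not say whether those numbers pair the mice. Of 6 pairs, 3 had correlated deviations over 0.1 (-0.218 to 0.283), and 2 AVF samples were closest to the sham sample of their number. So few pairs cannot settle the question. The block changed no other call of a member.

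Some values between the sexes, none of them called, changed sign. Timp1 in female against male AVF was 0.0158 in DESeq2, 0.0159 with RLE size factors, 0.00422 with the CPM filter and 0.00470 without #05 and #09, and -0.220 to 0.320 with each sample left out. With each sample left out, Mmp3 in that comparison was -0.00328 to 0.434. In female against male sham, Mmp2 was -0.291 to 0.0721, Mmp12 -0.871 (without #23) to 1.92 (main value 1.35) and Timp3 -0.151 to 0.0584. In the difference of the AVF effect between the sexes, Mmp2 was -0.259 to 0.107, Mmp12 -1.465 to 1.33 (the latter without #23, main value -0.89) and Mmp19 -0.0887 to 0.168, while Mmp12 was 0.359 with the replicate block and Mmp19 -0.0991 without #05 and #09. RNA of other tissues in single libraries was not removed.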
